A study of Danio rerio with 96 samples.

Results

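The pigment cell genes described here are 9 zebrafish gene names, pnp4a, dct, tyrp1b, pmela, tyr, mitfa, sox10, gch2 and ltk, which matched 11 Ensembl IDs of the 25907 genes in the count table. The names tyrp1b and mitfa were listed without their copy letter, so each took 2 IDs, and which copy an ID stands for cannot be told from the names. These are tyrp1 (ENSDARG00000056151 and ENSDARG00000029204) and mitf (ENSDARG00000003732 and ENSDARG00000037833). The names were chosen by their CPM over the 4 groups and 4 time points, that is, with the values described here in view. Their levels, differences and calls are therefore given as a description beside the share of all genes called, without p values, and support nothing about the set as a whole.

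RNA was sequenced from the whole body of single larvae, with 1 larva in each of 96 libraries. Control (Cont) larvae received neither agent, XR larvae received 8 Gy of X-rays at 36 h post-fertilization (hpf), FA larvae were kept in 200 μM folic acid (FA) from 35 hpf, and FA + XR larvae received both. Each group had 6 libraries at 36, 37, 60 and 84 hpf, so n = 6 throughout. All groups, controls included, are of an albino line that carries the slc45a2 b4 mutation on both copies and lacks melanin in its melanophores. Groups were held in separate wells, so a well and a treatment cannot be told apart, and the larvae of each time point are different individuals. The sources used here do not say if sampling at 36 hpf preceded the X-rays.

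The libraries held 243126 to 16470291 counts (median 3477936), and 0, 6, 4 and 3 libraries at 36, 37, 60 and 84 hpf held under 50% of the median of their time point. Levels are in CPM, that is, counts set relative to the library total, here scaled with TMM factors over all 96 libraries. They compare the same gene between libraries and not one gene with another. A gene was called where its adjusted p (Benjamini-Hochberg, edgeR quasi-likelihood test) was below 10%. Log2 fold changes are given with their standard error (SE). In whole larvae, fewer cells of a type and less RNA per cell cannot be told apart, and neither can the melanophores of the skin and the retinal pigment epithelium (RPE), which share the melanin genes.

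Zebrafish pigment cells arise from the neural crest. Sox10, a transcription factor of crest cells that is also used in glia and the otic vesicle, is needed for them, and Mitfa is the transcription factor that specifies melanophores. Melanophores make melanin with tyrosinase (Tyr), dopachrome tautomerase (Dct) and Tyrp1 on fibrils of Pmel. Iridophores fill reflecting platelets with guanine. Pnp4a, a purine nucleoside phosphorylase, marks them, and the receptor kinase Ltk sets their fate. Xanthophores make yellow pteridines, and Gch2 is a GTP cyclohydrolase of that pathway that also marks early pigment precursors.

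Pnp4a (ENSDARG00000057575), the iridophore enzyme, was lower in irradiated larvae at 60 and 84 hpf, and no melanin gene was called lower. At 60 hpf, pnp4a had lowest, median and highest levels of 27.6, 41.5 and 52.7 CPM in Cont and 14.2, 27.2 and 36.1 CPM in XR. In FA larvae of the same age they were 43.7, 50.8 and 78.1 CPM, against 25.4, 31.4 and 42.1 CPM in FA + XR. The Cont and XR ranges overlapped, and every FA + XR larva was below every FA larva. By median the order was FA, Cont, FA + XR and XR, and each group overlapped with its neighbour in that order.

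At 84 hpf, Cont larvae had 26.1, 29.2 and 38.2 CPM of pnp4a (lowest, median and highest) and XR larvae 10.6, 15.9 and 23.1 CPM. FA larvae had 19.1, 24.9 and 33.1 CPM, and FA + XR larvae 15.1, 22.3 and 24.8 CPM. Every XR larva was below every Cont larva, while FA and FA + XR overlapped. The order by median was Cont, FA, FA + XR and XR, again with overlap between each pair of neighbours.

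The log2 fold change of pnp4a at 60 hpf was −0.61 (SE 0.19) for XR vs. Cont, which was not called, and −0.73 (SE 0.18) for FA + XR vs. FA, which was. In FA + XR vs. FA, 1.43% of the 16319 genes tested were called and 1.06% were called lower. The groups did not overlap, FA + XR being lower, for 0.452% of 15699 genes. The mean of both differences, irradiated vs. unirradiated, was −0.67 (SE 0.13) and was called, as were 1.67% of genes, with 0.98% lower and 0.686% higher. Of 9 members tested at 60 hpf, pnp4a was the 1 called in FA + XR vs. FA and in irradiated vs. unirradiated, and 0 were called in XR vs. Cont (edgeR), where 1 had an unadjusted p under 0.05, DESeq2 called 0 and 0.147% of genes were called lower.

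The call in FA + XR vs. FA at 60 hpf depended on the setting. It was lost at a threshold of 5%, in a fit of only the 12 libraries compared, and in 6 of the 24 fits that left out 1 library. Those 6 libraries were the FA + XR libraries of 3162596, 3565072, 10842760 and 16470291 counts and the FA libraries of 2586967 and 5295573 counts, and the log2 fold change over the 24 fits stayed between −0.82 and −0.64.

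At 84 hpf, the log2 fold change of pnp4a was −0.84 (SE 0.18) for XR vs. Cont and was called. In that comparison 1.69% of the 16127 genes tested were called and 1.15% were called lower. The groups did not overlap, XR being lower, for 1.04% of 15699 genes. For FA + XR vs. FA it was −0.35 (SE 0.18) and was not called, where 0.546% of genes were called lower. For irradiated vs. unirradiated it was −0.60 (SE 0.13) and was called, as were 4.32% of genes, with 2.49% lower and 1.83% higher. The XR vs. Cont call was made in all 7 other settings and in all 24 fits without 1 library, in which the log2 fold change ran from −0.96 to −0.73.

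The FA by XR interaction, which compares the effect of irradiation with FA and without it, was called for 0 members at 36, 37, 60 or 84 hpf (edgeR), where 0% of genes were called. At an unadjusted p under 0.05 it had 4 of 8 members at 36 hpf, 3 of 9 at 37 hpf, 0 of 9 at 60 hpf and 1 of 8 at 84 hpf. Over all genes these counts were 1252 of 14466, 579 of 14380, 1046 of 16319 and 640 of 16127. A larger effect on pnp4a without FA than with it at 84 hpf was thus not shown. In XR vs. FA + XR, 0 members were called at any time point, where 0%, 0%, 0% and 0.0062% of genes were. At an unadjusted p under 0.05 it had 1, 2, 0 and 1 members, and 586, 517, 505 and 588 of all genes. DESeq2 and the other alternative fits were not run on these 2 comparisons, nor on FA vs. Cont or FA + XR vs. Cont. The counts at an unadjusted p under 0.05 are no test of the set, since its members were chosen with these levels in view. Members also varied together. Within groups at 36 hpf, dct, tyrp1 (ENSDARG00000056151), pmela and gch2 had Pearson's r of 0.91 to 0.96 with each other.

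FA without irradiation was not followed by a called difference in any member. In FA vs. Cont the log2 fold change of pnp4a was 0.38 (SE 0.19) at 60 hpf and −0.17 (SE 0.17) at 84 hpf, and 0 members were called (edgeR) or had an unadjusted p under 0.05 at these times, where 1.45% and 0.0248% of genes were called. In FA + XR vs. Cont it was −0.36 (SE 0.18) and −0.52 (SE 0.17), and 0 members were called (edgeR), with 0 and 3 at an unadjusted p under 0.05. The share of genes called there was 0.276% and 1.92%.

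**Figure D1:**
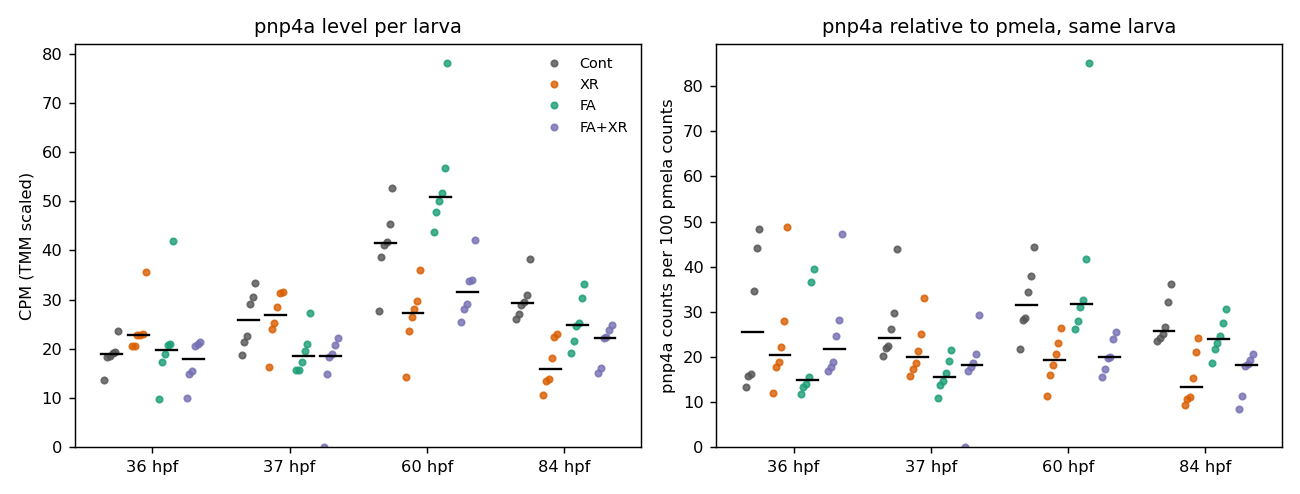
pnp4a in each larva at 36, 37, 60 and 84 hpf. The left panel shows CPM scaled with TMM factors, and the right panel shows pnp4a counts per 100 pmela counts of the same library. Points are single larvae, bars are medians of 6, and colours are the groups. At 84 hpf the 6 XR larvae lie between 10.6 and 23.1 CPM, all below the 6 Cont larvae at 26.1 to 38.2 CPM.

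Before 60 hpf the groups were not set apart in this way. At 36 hpf the Cont, XR, FA and FA + XR medians of pnp4a were 18.8, 22.7, 19.8 and 17.95 CPM, and at 37 hpf 25.8, 26.9, 18.4 and 18.6 CPM. All 4 groups overlapped at both times. The FA + XR library of 243126 counts at 37 hpf held 0 pnp4a counts, where the other 5 of its group had 14.9 to 22.3 CPM. In that library 3 counts correspond to 6.31 CPM, below the levels of the others.

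A ratio within a library does not depend on its scaling. Counts of pnp4a per 100 counts of pmela, the gene of the melanosome fibril protein, were added after the data were seen. Unirradiated larvae had medians at 60 hpf of 31.4 (Cont) and 31.7 (FA), and irradiated larvae of 19.3 (XR) and 19.9 (FA + XR). The lowest FA larva, at 26.1, was above the highest FA + XR larva, at 25.5, while Cont and XR overlapped, with the lowest Cont larva at 21.7 and the highest XR larva at 26.3. At 84 hpf these medians were 25.8 (Cont), 23.8 (FA), 13.3 (XR) and 18.1 (FA + XR), and the highest XR larva, at 24.1, was above the lowest Cont larva, at 23.5. FA and FA + XR overlapped as well, with the lowest FA larva at 18.7 and the highest FA + XR larva at 20.5. The ratio was lower in irradiated larvae by median in all 4 of these pairs. For FA + XR vs. FA at 84 hpf the mean log2 ratio differed by −0.66, against −0.31 for the mean log2 CPM of pnp4a alone. A ratio alone shows that the 2 genes differed unequally and not which of them did. In this pair the mean log2 CPM of pmela was 6.72 in FA and 7.07 in FA + XR. The lower ratio there thus includes a higher pmela and is not a measure of pnp4a alone.

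Ltk (ENSDARG00000042861), the iridophore receptor kinase, gave 13 counts in all and was at 0 in 88 of 96 libraries. It was below the filter of a mean count of 2.5 at every time point and was not tested. No difference in ltk was detectable at this depth, at which 3 counts correspond to between 0.156 and 6.31 CPM depending on the library. These limits cover counting error only. The second iridophore gene of the set therefore gives no information on whether other iridophore transcripts followed pnp4a.

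Dct (ENSDARG00000006008), which converts dopachrome in melanin synthesis, was at 65.7, 73.7 and 89.9 CPM in Cont (lowest, median and highest) and 58.6, 78.2 and 96.8 CPM in XR at 60 hpf. In FA it was at 42.1, 84.5 and 86.7 CPM, and in FA + XR at 80.7, 94.2 and 112 CPM. All neighbouring groups overlapped. At 84 hpf the medians of Cont and FA were 47.1 and 47.4 CPM, and those of XR and FA + XR were 55.7 and 61.8 CPM. The log2 fold change of irradiated vs. unirradiated was 0.19 (SE 0.12) at 60 hpf and 0.22 (SE 0.10) at 84 hpf, and neither was called.

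Pmela (ENSDARG00000091298), a precursor of the fibrils on which melanin is laid down, had Cont, XR, FA and FA + XR medians of 137, 133, 155 and 164 CPM at 60 hpf. At 84 hpf they were 108, 112, 110 and 129 CPM. Its log2 fold change of irradiated vs. unirradiated was 0.08 (SE 0.11) at 60 hpf and 0.20 (SE 0.10) at 84 hpf. The groups overlapped at both times.

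For tyrp1 (ENSDARG00000056151), of the melanin enzyme family, the medians in the same order were 183, 189.8, 194 and 209 CPM at 60 hpf and 153, 146, 137 and 167 CPM at 84 hpf. The other tyrp1 ID (ENSDARG00000029204) had medians of 32.3, 38.6, 33.5 and 40.2 CPM at 60 hpf and 20.5, 20.95, 15.8 and 18.5 CPM at 84 hpf. Irradiated vs. unirradiated, the first differed by 0.16 (SE 0.14) and 0.12 (SE 0.09) at 60 and 84 hpf, and the other by 0.24 (SE 0.17) and 0.14 (SE 0.14), as log2 fold changes. None of the 4 melanin IDs was called in any comparison between groups at any time point. At 37 hpf the irradiated vs. unirradiated differences of the 4 melanin IDs were below 0, from −0.18 to −0.02. These are means of opposite differences. For XR vs. Cont all 4 were above 0, from 0.14 to 0.37, and for FA + XR vs. FA all 4 were below 0, from −0.64 to −0.35. Reads of the tyrp1 copies could have been split between them by the counting.

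**Figure D2:**
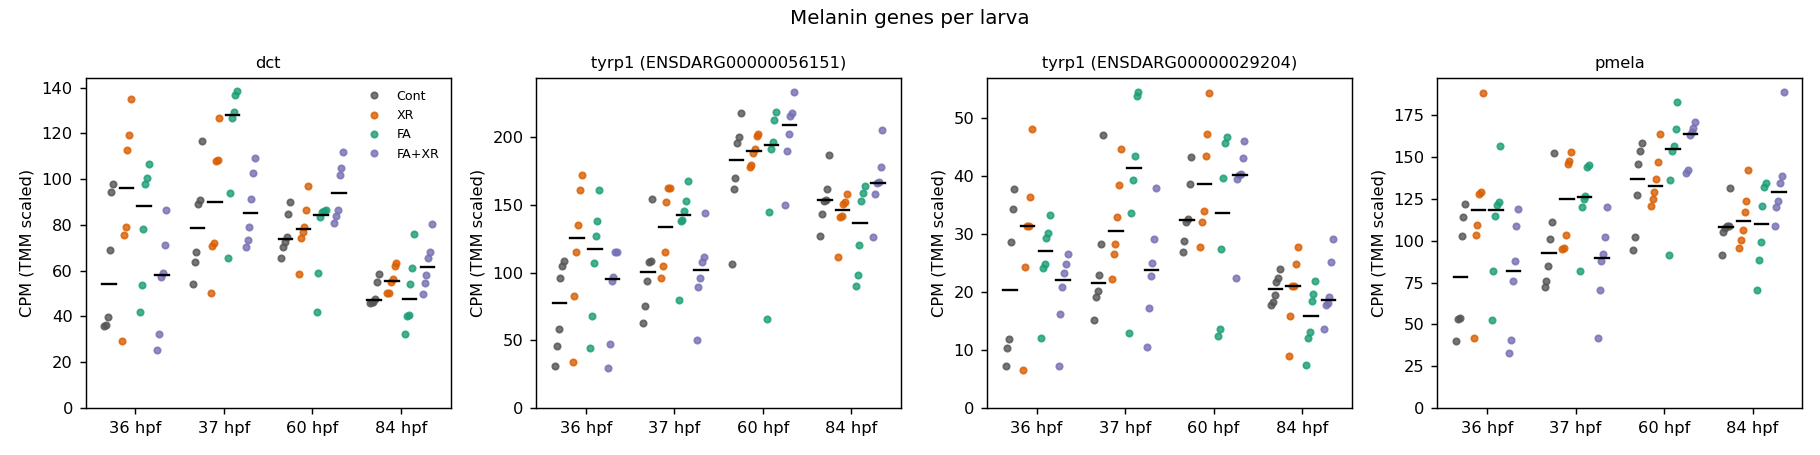
CPM (TMM scaled) of dct, both tyrp1 IDs and pmela in each larva at 36, 37, 60 and 84 hpf. Points are single larvae, bars are medians of 6, and colours are the groups. At 60 and 84 hpf the groups overlap, and at 36 hpf dct spans 25.4 to 135 CPM over the 24 larvae.

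Tyr (ENSDARG00000039077), the rate-limiting enzyme of melanin synthesis, gave 215 counts in all and was at 0 in 32 of 96 libraries. It was tested at 37 and 60 hpf and was below the filter at 36 and 84 hpf. At 60 hpf the Cont and FA medians were 0.141 and 0.278 CPM and those of XR and FA + XR were 0.627 and 0.761 CPM, with a log2 fold change of 1.19 (SE 0.62) for irradiated vs. unirradiated that was not called. The group ranges overlapped, and 1 XR larva was at 6.30 CPM. Leaving out 1 library moved the value between 0.72 and 1.62, the lower being without that XR larva.

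Slc45a2 (ENSDARG00000002593), the melanosome transporter that is mutated in every larva here, is not one of the 9 names and was kept in view as the gene of the line. Its 1773 counts show that its transcript is present, and counts per gene do not show the mutation. At 60 hpf it was at 2.19, 3.89 and 5.06 CPM in Cont (lowest, median and highest), 2.22, 3.87 and 6.30 CPM in XR, 3.72, 7.78 and 11.8 CPM in FA and 3.5, 4.79 and 6.41 CPM in FA + XR. It was higher in FA than in Cont (log2 fold change 1.08, SE 0.31, edgeR adjusted p = 0.0977), with overlap of the groups. In that comparison 1.32% of genes were called higher, and no alternative fit was run. At 84 hpf its difference between FA and Cont was −0.21 (SE 0.43) and was not called.

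**Figure D3:**
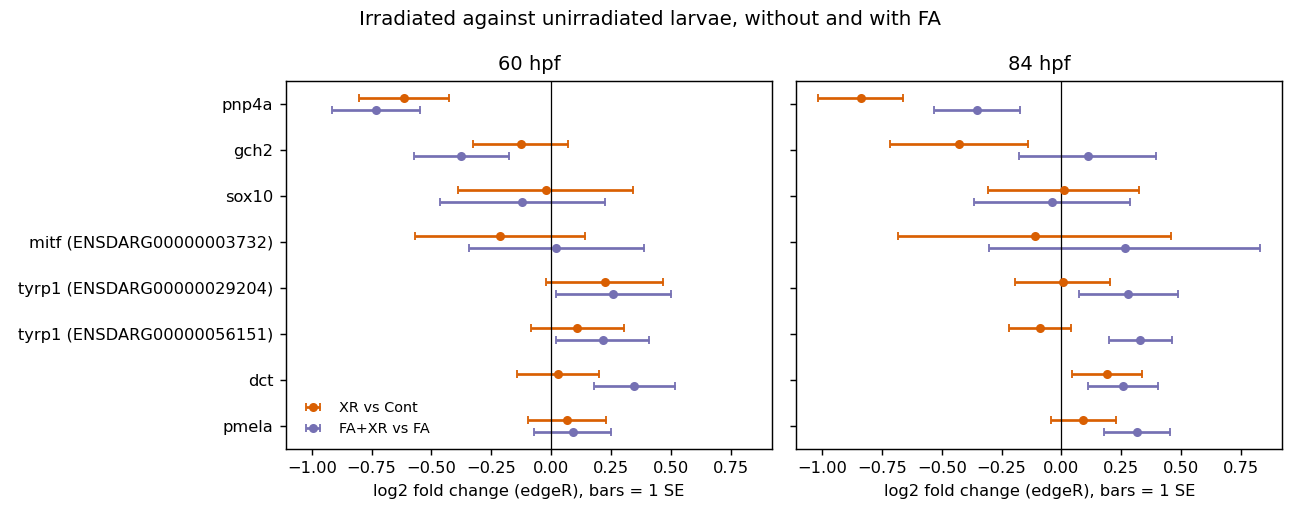
Log2 fold changes of the 8 members tested at both 60 hpf (left) and 84 hpf (right), for XR vs. Cont and FA + XR vs. FA. Points are edgeR estimates and bars are 1 SE. pnp4a is at −0.61 and −0.73 at 60 hpf and at −0.84 and −0.35 at 84 hpf, while the melanin genes lie between −0.09 and 0.35.

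Among the regulators, sox10 (ENSDARG00000077467) was not called between groups of a time point or between successive time points (edgeR). Its medians were 2.99 to 3.87 CPM at 36 hpf, 3.33 to 5.02 at 37 hpf, 4.45 to 5.81 at 60 hpf and 4.35 to 5.09 at 84 hpf. The log2 fold change of irradiated vs. unirradiated was −0.07 (SE 0.25) at 60 hpf and −0.02 (SE 0.23) at 84 hpf. At 37 hpf the log2 fold change was −0.43 for XR vs. Cont, with 2 XR larvae at 0, and 0.18 for FA + XR vs. FA. The SE between successive time points was 0.39 to 0.46, so moderate differences in sox10 could have been missed. Sox10 is also a gene of glia, and the levels of the 12 IDs of the glia list were summed at 60 hpf. The sum had medians of 1110 CPM (Cont), 1188 CPM (FA), 889 CPM (XR) and 889 CPM (FA + XR). No ID was at 0 in a whole group, but fabp7 (ENSDARG00000007697), a lipid carrier of glia, made up most of the sum. Its own medians were 972 CPM (Cont), 1035 CPM (FA), 768 CPM (XR) and 770 CPM (FA + XR). The sum therefore does not show how the other IDs of the list differed. What part glia have in the sox10 level was not tested.

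The mitf ID with reads (ENSDARG00000003732), of the transcription factor family that directs melanophore fate, was lower by median at 84 than at 60 hpf in all 4 groups. Its median was 5.27 to 10.8 CPM over the 4 groups at 36 hpf, 5.66 to 7.24 at 37 hpf, 3.93 to 6.52 at 60 hpf and 1.47 to 2.63 at 84 hpf. From 60 to 84 hpf the log2 fold change was −1.76 (SE 0.40) in Cont and −1.65 (SE 0.43) in XR, which were called, and −1.01 (SE 0.43) in FA and −0.80 (SE 0.39) in FA + XR, which were not. In FA it was also called lower from 37 to 60 hpf (−0.84, SE 0.38). The difference of the later change between XR and Cont and between FA + XR and FA was not called. That between larvae with and without FA was not tested, so these calls do not show a difference by FA. The other mitf ID (ENSDARG00000037833) gave 7 counts in all and was at 0 in 91 of 96 libraries.

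Gch2 (ENSDARG00000099101), the pteridine enzyme, fell at both later steps in every group. In Cont its lowest, median and highest levels were 401, 615 and 763 CPM at 37 hpf, 119.5, 208 and 297 CPM at 60 hpf, and 31.9, 42.04 and 144 CPM at 84 hpf. The medians of the other groups were 663 to 820 CPM, 196 to 252 CPM and 37.0 to 64.1 CPM at these times. From 37 to 60 hpf the log2 fold change was −1.55 (SE 0.26) in Cont, −1.91 (SE 0.26) in XR, −1.58 (SE 0.26) in FA and −1.58 (SE 0.26) in FA + XR. From 60 to 84 hpf it was −1.85 (SE 0.26), −2.17 (SE 0.27), −2.15 (SE 0.27) and −1.67 (SE 0.26). All 8 were called. Between the groups of 1 time point gch2 was never called, and irradiated vs. unirradiated differed by −0.25 (SE 0.14) at 60 hpf and −0.16 (SE 0.20) at 84 hpf. The direction at 84 hpf rested on 1 Cont larva at 144 CPM, where the next of its group was at 52.5 CPM, since the difference was 0.09 without its library of 3762373 counts.

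**Figure D4:**
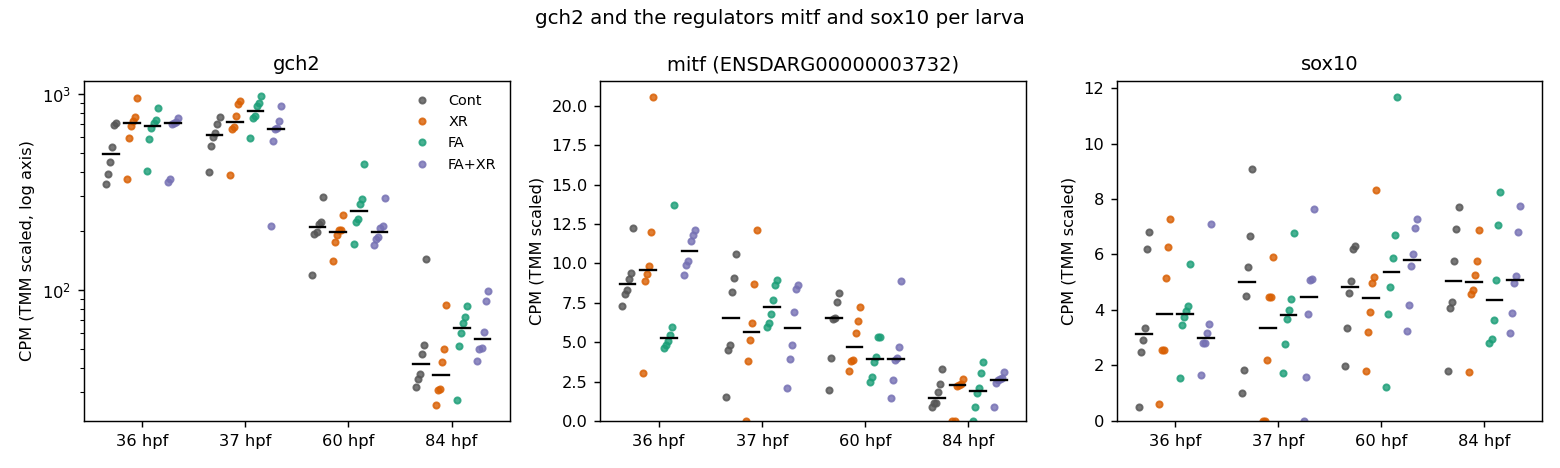
CPM (TMM scaled) of gch2 (log axis), mitf (ENSDARG00000003732) and sox10 in each larva at 36, 37, 60 and 84 hpf. Points are single larvae, bars are medians of 6, and colours are the groups. The gch2 medians of Cont go from 615 CPM at 37 hpf to 208 at 60 hpf and 42.04 at 84 hpf, while those of sox10 stay between 2.99 and 5.81 CPM over all groups and times.

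Pnp4a had another course. From 37 to 60 hpf its log2 fold change was 0.67 (SE 0.22) in Cont, 1.47 (SE 0.22) in FA and 0.88 (SE 0.22) in FA + XR, all called, and 0.00 (SE 0.22) in XR. From 60 to 84 hpf it was −0.45 (SE 0.21) in Cont, which was not called, and −0.69 (SE 0.22) in XR, −1.03 (SE 0.22) in FA and −0.63 (SE 0.21) in FA + XR, which were. The difference between XR and Cont in the step from 37 to 60 hpf was not itself tested. That between 60 and 84 hpf was tested and called for 0 members, as for 0.0127% of genes.

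Over time the melanin genes differed less than gch2. From 37 to 60 hpf, tyrp1 (ENSDARG00000056151) was higher in Cont by 0.79 (SE 0.25) and in FA + XR by 0.98 (SE 0.25) on the log2 scale, and pmela in FA + XR by 0.85 (SE 0.23), while dct fell in FA by 0.63 (SE 0.23) on the log2 scale. From 60 to 84 hpf, tyrp1 (ENSDARG00000029204) had log2 fold changes of −0.97 (SE 0.29) in XR, −0.95 (SE 0.30) in FA and −0.92 (SE 0.28) in FA + XR. These were the melanin calls, each of 1 step in some of the groups.

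Of the 8 members tested over time, 3, 1, 4 and 4 were called from 37 to 60 hpf (Cont, XR, FA and FA + XR), and from 60 to 84 hpf 2, 4, 3 and 3 were called, all of them lower. The share of all genes called lower from 60 to 84 hpf was 2.8% (Cont), 1.68% (XR), 10.5% (FA) and 1.78% (FA + XR). From 37 to 60 hpf, 16.5% of genes were called higher and 14.3% lower in Cont, 17.9% and 15.8% in XR, 16.3% and 13.7% in FA, and 18.3% and 14.4% in FA + XR. From 36 to 37 hpf, 0 members were called in any group (edgeR), where the share of genes called ran from 0% in Cont to 1.2% in XR. The TMM factors over all 96 libraries differed between time points. They ran from 0.69 to 0.94 at 36 hpf, 0.70 to 1.96 at 37 hpf, 0.64 to 1.37 at 60 hpf and 1.15 to 1.61 at 84 hpf. Changes over time therefore rest on this scaling.

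Single larvae differed more in the melanin genes at 36 hpf than later. Dct ran from 25.4 to 135 CPM over the 24 larvae, 5.32-fold, against 2.48-fold at 84 hpf, and its SD within groups fell from 0.68 at 36 hpf to 0.41, 0.28 and 0.28 at 37, 60 and 84 hpf on the log2 scale. Pmela ran from 32.6 to 188 CPM at 36 hpf, with an SD of 0.68 that was 0.27 at 84 hpf. Sox10, which has few counts, had an SD of 0.84 at 36 hpf. The same 7 of 24 larvae were lowest in dct, pmela, both tyrp1 IDs and gch2. These 7 had 25.4 to 42.1 CPM of dct, where the other 17 started at 53.8 CPM, and 348 to 450 CPM of gch2, where the others started at 536 CPM.

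These larvae came from all groups, namely 3 Cont, 1 XR, 1 FA and 2 FA + XR larvae. The number of 7 was chosen after the values were seen, and no groups were formed from it. Of the 7 larvae lowest in pnp4a, 3 were among them, and of those lowest in sox10 and in mitf (ENSDARG00000003732), 2 each. Their libraries held 1985483 to 4034858 counts, and the others 2352540 to 10094251. Of 8 members tested at 36 hpf, 0 were called in any comparison between groups (edgeR, the 1 tool run there), with 0 to 1 at an unadjusted p under 0.05 for each pair of groups. The share of genes called was 0.0207% (XR vs. Cont), 0% (FA + XR vs. FA), 0.0138% (FA vs. Cont) and 0.0553% (FA + XR vs. Cont). At 37 hpf, 0 of 9 were called (edgeR), with 0 to 3 at an unadjusted p under 0.05. In XR vs. Cont and in FA + XR vs. FA, DESeq2 also called 0 members, and edgeR called 0.104% and 0.118% of genes. The share was 0% in FA vs. Cont, 0.0974% in FA + XR vs. Cont and 0.25% irradiated vs. unirradiated.

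Within groups, the melanin genes varied together between larvae at every time point. The relation was taken over 96 larvae as deviations of log2 CPM from the mean of the larva's own group, which the choice of the members did not use. For tyrp1 (ENSDARG00000056151) and pmela, Pearson's r was 0.89 and Spearman's rho 0.89, for dct and pmela 0.84 and 0.78, and for dct and tyrp1 (ENSDARG00000056151) 0.83 and 0.80. Each had a permutation p of 1e-05, the smallest that 100000 resamples within groups can give, and 1.67e-05 after adjustment over the 10 pairs of 5 genes. Without the 2 larvae farthest from the median of the first gene, r was 0.87, 0.80 and 0.80. Dct and pmela had r = 0.96, 0.70, 0.59 and 0.60 at 36, 37, 60 and 84 hpf taken alone.

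Gch2 followed the melanin genes early and less so later. Its r with dct was 0.57 and its rho 0.60 over all 96 larvae (permutation p = 1e-05 for both, adjusted 1.67e-05). By time point r was 0.95 at 36 hpf, 0.61 at 37 hpf, 0.16 at 60 hpf and 0.37 at 84 hpf, and without the 2 farthest larvae the pooled r was 0.61. With pmela it was 0.60 over all larvae, and 0.94 at 36 hpf against 0.19 at 60 hpf. The pooled relation thus rested on 36 and 37 hpf, and the difference between time points was not tested.

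Pnp4a had lower r with the melanin genes than they had with each other. Its r was 0.19 with dct (rho 0.20), with permutation p = 0.0216 and 0.0614, which are also the adjusted values, and 0.31 with pmela (rho 0.20, permutation p = 0.0152 and 0.0594, adjusted 0.0169 and 0.0614). With tyrp1 (ENSDARG00000056151) r was 0.31 and rho 0.25 (permutation p = 0.00427 and 0.0137, adjusted 0.00534 and 0.0172). For mitf (ENSDARG00000003732), r was lower still with tyrp1 (ENSDARG00000056151) and pmela, at 0.11 and 0.12, but not with dct, at 0.21. Pnp4a had r = 0.39 with sox10, above its r with these melanin genes. At 60 hpf the r of pnp4a with dct was −0.50 and with pmela −0.09. For pnp4a and gch2 r was 0.44 and rho 0.36 (permutation p = 0.00069 and 0.00115, adjusted 0.000986 and 0.00164), and r was 0.82 at 37 hpf but −0.20 at 60 hpf. It was 0.29 without the 2 farthest larvae, and 0.29 without the 13 shallow libraries, which left 83. These deviations share the scaling of a library. For these 5 genes, r was 0.30 to 0.49 with the total count and −0.55 to −0.29 with the TMM factor. The median r with all other genes was 0.05 to 0.11 and the 95th percentile 0.37 to 0.54. For pnp4a that percentile, 0.54, was above its r with gch2, dct, pmela and tyrp1 (ENSDARG00000056151). Over 5% of genes thus had a higher r with pnp4a than any of these had. The permutation p values do not account for the shared scaling. For pnp4a they are therefore no evidence of a relation particular to pigment genes. What part depth has in these relations was not tested, and without the shallow libraries dct and pmela had r = 0.88.

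A wider set of pigment genes was read from 4 lists for melanophores, iridophores, xanthophores and the neural crest, with 76 IDs beside the members. They were written with earlier results of these data known. The adjusted p values printed for their genes therefore describe single calls made over all genes and are no test of a list. At 84 hpf, 56 were tested, and irradiated vs. unirradiated 3 were called higher and 2 lower, all 5 in the iridophore list, where 17 of 19 IDs were tested. Over all genes 1.83% were called higher and 2.49% lower. The median log2 fold change of the iridophore list was 0.00. The list also holds gpnmb, tfec, alx4, fhl2, slc25a36, mpv17 and tspan10, and no ID of these was called (edgeR). The calls of pnp4a and pnp4b therefore do not show that iridophore transcripts in general were lower. The other 3 lists had 0 calls among 10 melanophore, 15 xanthophore and 14 neural crest IDs (edgeR), with 2, 0 and 4 at an unadjusted p under 0.05. Here and below, counts of list IDs at an unadjusted p under 0.05 are given without the share of all genes. They are no test of a list. DESeq2 called 6 IDs of the 4 lists in place of 5, among them 2 of the neural crest list. The share of all genes that DESeq2 called was not taken, so its counts are not read as results about a list.

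The genes called lower act on purine nucleosides or on the way to guanine. Pnp4b (ENSDARG00000029230), the paralogue of pnp4a, had lowest, median and highest levels of 6.51, 10.2 and 12.95 CPM in Cont, 1.32, 3.46 and 8.88 CPM in XR, 0, 7.40 and 16.4 CPM in FA, and 1.64, 4.64 and 7.75 CPM in FA + XR. The groups overlapped. The log2 fold change was −1.17 (SE 0.28, edgeR adjusted p = 0.00984) irradiated vs. unirradiated and −1.42 (SE 0.40, adjusted p = 0.0758) for XR vs. Cont. The latter was lost in 8 of 24 fits without 1 library, namely the Cont libraries of 4286073, 4318873, 4416882 and 6021541 counts and the XR libraries of 2050987, 2912632, 4238657 and 5428850 counts, and over the 24 fits it ran from −1.64 to −1.18. At 60 hpf, pnp4b was called lower in FA + XR vs. Cont, a comparison with no alternative fit (−2.25, SE 0.54, edgeR adjusted p = 0.0662), where 0.098% of genes were. Its medians there were 5.14 CPM (Cont), 1.28 CPM (FA), 1.24 CPM (XR) and 1.15 CPM (FA + XR), so FA larvae without irradiation were about as low by median. The ranges were 3.32 to 6.58 CPM (Cont), 0 to 5.16 CPM (FA), 0.68 to 3.52 CPM (XR) and 0.42 to 1.87 CPM (FA + XR), and FA and XR each overlapped with Cont. Reads common to pnp4a and pnp4b, if any, could have been split between them by the counting, and their sequences were not compared here.

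Impdh1 (ENSDARG00000042336), of the enzyme family that commits inosine monophosphate to guanine nucleotides, had unirradiated medians at 84 hpf of 5.84 CPM (Cont) and 8.74 CPM (FA) and irradiated ones of 3.61 CPM (XR) and 4.61 CPM (FA + XR). Its log2 fold change irradiated vs. unirradiated was −0.88 (SE 0.22, edgeR adjusted p = 0.0136). The copy it stands for is not given by its name.

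The 3 genes called higher are enzymes that build the purine ring. Ppat, the first enzyme of purine synthesis, had Cont, XR, FA and FA + XR medians of 13.8, 17.97, 10.6 and 16.9 CPM at 84 hpf (log2 fold change 0.55, SE 0.16, edgeR adjusted p = 0.0459). Paics, which acts in the middle of the pathway, had medians of 192, 271, 237 and 315 CPM in the same order (0.51, SE 0.12, adjusted p = 0.012). Atic, which closes the ring, had medians of 37.4, 67.8, 39.01 and 58.5 CPM (0.56, SE 0.17, adjusted p = 0.0523). Paics was also called in FA + XR vs. Cont, a comparison with no alternative fit (0.75, SE 0.18, edgeR adjusted p = 0.0139). Other purine genes of the list were not called, with log2 fold changes of 0.26 (SE 0.12) for adsl, 0.17 (SE 0.18) for pfas, 0.04 (SE 0.13) for gmps and −0.17 (SE 0.10) for the other impdh1 ID (ENSDARG00000029524), and gart was below the filter. Dividing cells of every type use these enzymes, so they are not markers of iridophores alone.

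The call of atic was lost with DESeq2 (log2 fold change 0.57) and at a threshold of 5%. It was also lost without the XR library of 2050987 counts, the FA + XR library of 3559299 counts or the FA library of 1841446 counts, with log2 fold changes of 0.49 to 0.68 over the 24 such fits. That of ppat was lost without the FA + XR library of 2984685 counts, with a range of 0.48 to 0.64.

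**Figure D5:**
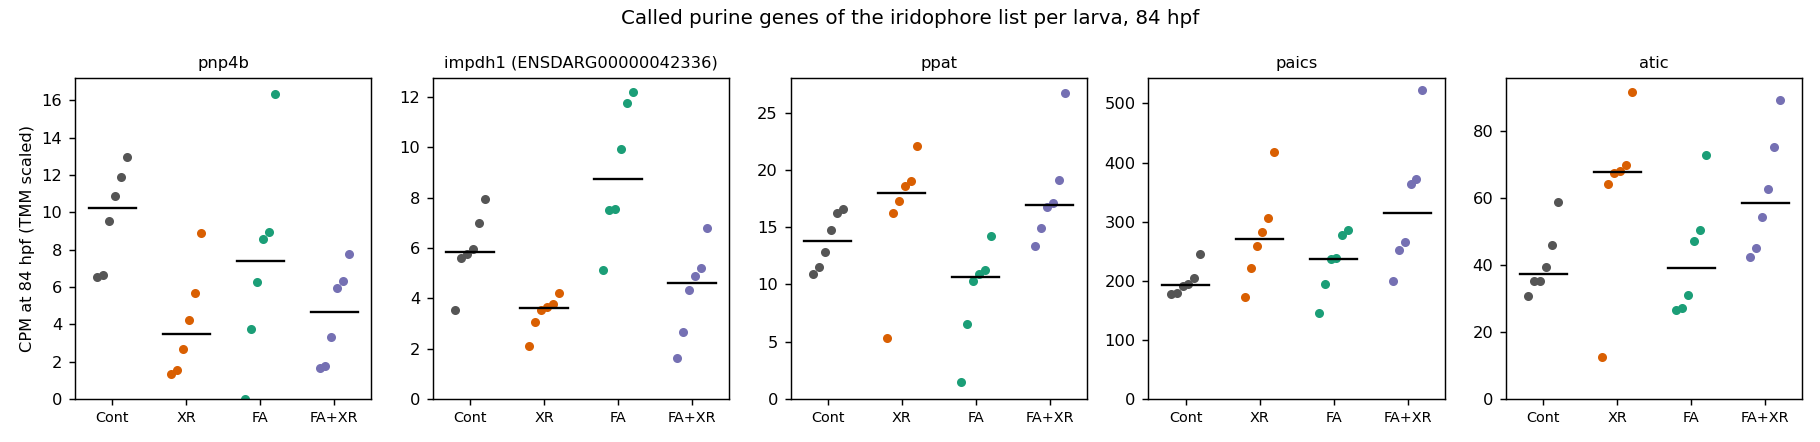
CPM (TMM scaled) at 84 hpf of the 5 iridophore list genes called in irradiated vs. unirradiated larvae. Points are single larvae, bars are medians of 6, and colours are the groups. The median of pnp4b is 10.2 CPM in Cont and 3.46 in XR, and that of paics is 192 CPM in Cont and 271 in XR.

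At 60 hpf, 0 of 59 tested IDs of the 4 lists were called in irradiated vs. unirradiated (edgeR), where 1.67% of all genes were. Of the 59, 6 were at an unadjusted p under 0.05 and 1 was called by DESeq2. The median log2 fold change of the 59 was −0.08. In FA vs. Cont, 2 were called higher, slc45a2 and scarb1, the latter a receptor that takes up carotenoids (log2 fold change 0.48, SE 0.14, edgeR adjusted p = 0.0948). The median of scarb1 was 172 CPM in Cont and 246 in FA. In that comparison 1.45% of genes were called, and no alternative fit was run. At 36 and 37 hpf, 0 of 57 tested IDs were called in any comparison (edgeR), with 0 to 8 at an unadjusted p under 0.05.

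Genes listed for the RPE, which shares the melanin genes, were read beside them. Whole larvae do not show if each of these genes, rlbp1b included, is one of the RPE alone. The summed level of the 14 RPE IDs lay at medians of 196, 201, 195 and 195 CPM in Cont, XR, FA and FA + XR at 60 hpf, with overlap of the groups. At 84 hpf the sum ran from 282 to 355 CPM (Cont), 220 to 317 CPM (XR), 224 to 308 CPM (FA) and 217 to 373 CPM (FA + XR). Of its IDs, rrh was at 0 in the whole group in Cont at both times and in XR at 60 hpf, and best1 was at 0 in 78 of 96 libraries. Of 12 RPE IDs tested at 84 hpf, where 2.49% of all genes were called lower, 1 was called lower in irradiated vs. unirradiated. This was rlbp1a, a retinal carrier protein, with Cont, XR, FA and FA + XR medians of 20.2, 9.70, 12.98 and 10.8 CPM (log2 fold change −0.76, SE 0.18, edgeR adjusted p = 0.00722). Its paralogue rlbp1b was called higher at 60 hpf (0.50, SE 0.15, edgeR adjusted p = 0.0912), as were 0.686% of genes, and not at 84 hpf. What part the RPE has in the melanin gene levels was not tested.

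Among the other markers, 2 of 11 glia IDs tested were called at 84 hpf irradiated vs. unirradiated, where 4.32% of all genes were. Mbpb, of myelin basic protein, fell by 0.34 on the log2 scale (edgeR adjusted p = 0.0425), and fabp7 (ENSDARG00000034650), a lipid carrier of glia, was higher by 0.58 (adjusted p = 0.0101). At 60 hpf, fabp7 (ENSDARG00000007697) fell by 0.37 on the log2 scale (edgeR adjusted p = 0.0952) irradiated vs. unirradiated, where 0.98% of genes were called lower. Of 7 otic IDs tested at 84 hpf, 0 were called (edgeR), with 2 at an unadjusted p under 0.05.

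The genes most like pnp4a in their course were taken by Pearson's r of mean log2 CPM over the 16 groups by time, among 15699 genes and as a description. They included RIMOC1 (r = 0.88), UNCX (0.85), si:ch211-250g4.3 (0.83) and JAGN1 (0.82). Those most like dct were oacyl (0.86), capn2a (0.84), fabp4a (0.84), COTL1 (0.82) and slc41a2a (0.81). None of these genes is on the 4 pigment lists. The 16 means of a gene share the scaling of their libraries with those of every other gene.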

How the data were processed

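The deposited count table holds read counts per Ensembl gene that the authors made by quantifying reads on the cDNA set of GRCz11, without normalization. The quantifier is not given in the sources used here. Of its values, 3 are not whole (judged exactly, with a tolerance of 0), so the deposited values were taken to be estimated counts and were rounded. Columns were assigned to groups through the table of library properties deposited beside it, and 0 were left unassigned. Gene names were matched to 23608 of the 25907 IDs. No reference sequence of this build was used here, so no positions are given.

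Each time point (24 libraries) had 1 fit in edgeR 4.0.16 in R 4.3.3 (TMM factors, quasi-likelihood F test, a mean count of 2.5 or more per gene), and calls were made at 10% after Benjamini-Hochberg adjustment. A fit of 16 groups over 96 libraries gave changes over time. The SE is the size of the log2 fold change divided by the square root of F. Log2 CPM used a prior count of 2. Larvae are the replicates behind each p value, and effects of a well are not part of it. The members and lists were chosen with earlier results of these data known. The text names all members, slc45a2, the called genes of each list (where over 4 are called, those with the largest rises and falls; all 5 of the iridophore list at 84 hpf are named, since a figure shows them) and the 5 genes most like pnp4a and dct, except for some items that are not reported here. Alternatives were DESeq2 1.42.0, RLE factors, no filter, filterByExpr, a 5% threshold, only the 12 libraries compared, no shallow libraries (under 50% of the median), a prior count of 0.5, and each library left out. Between groups they were run at 37, 60 and 84 hpf, for XR vs. Cont, FA + XR vs. FA and irradiated vs. unirradiated alone. The comparisons FA vs. Cont, FA + XR vs. Cont, XR vs. FA + XR and the interaction had no alternative fit. Changes over time were also fitted with RLE factors and without shallow libraries.

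The test was tested on simulated data. With genes changed by 1 on the log2 scale it recovered, for XR vs. Cont, 37% among 16319 genes (60 hpf) and 58% among 16127 genes (84 hpf), and for a size of 2 it recovered 76% and 89%. Of its calls, 3.42% and 12.5% were false. Figures were drawn with matplotlib 3.10.9 in Python 3.11.15.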

Additional observations from a re-analysis of the deposited data

Results flagged for a closer look

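In 144 sets of 6 larvae (8 members with reads and slc45a2, in 16 groups by time), 18 had a larva whose gap to the nearest other larva was large for the range of its group. A rate of 1 in 20 gives about 7.2 of them, for independent sets with normal values. These sets share larvae and some hold few counts, so an excess over 7.2 is not shown. What part depth has in them was not tested. Values are CPM.

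The FA + XR library of 243126 counts at 37 hpf was at 0 for pnp4a and at 212 for gch2 (nearest other 14.9 and 575). The XR library of 581706 counts at 37 hpf was at 0 for mitf (ENSDARG00000003732). The FA library of 767872 counts at 60 hpf was at 65.7 for tyrp1 (ENSDARG00000056151). The XR library of 700645 counts at 84 hpf was at 112 for tyrp1 (ENSDARG00000056151), 1.78 for sox10 and 0 for slc45a2. The FA + XR library of 1447760 counts at 37 hpf was at 0 for slc45a2.

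The FA library of 2538811 counts at 37 hpf was low in 3 melanin IDs at once, at 12.9 for tyrp1 (ENSDARG00000029204), 79.4 for tyrp1 (ENSDARG00000056151) and 82.2 for pmela, where the nearest others were at 33.6, 138 and 120. Tyrp1 (ENSDARG00000029204) was also low in 1 XR larva (6.55) and 1 FA larva (12.1) at 36 hpf and in 1 FA + XR larva (22.3) at 60 hpf. Mitf (ENSDARG00000003732) was high in 1 FA larva at 36 hpf (13.7, next 5.95) and low in 1 FA + XR larva at 84 hpf (0.906). Pnp4a was high in 1 XR larva at 36 hpf (35.6, next 22.9). Gch2 was high in 1 Cont larva at 84 hpf, at 144.0 where the next was at 52.5.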

How the results depend on the processing

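No called value reversed its direction in any alternative run, and 36 hpf was run in 1 setting alone. Among members, the 1 call in FA + XR vs. FA at 60 hpf went to 0 at 5% and with only the 12 libraries compared, and 0 to 1 were called with 1 library left out. In the wider lists, the count for XR vs. Cont at 60 hpf went from 0 to 1 with DESeq2. For FA + XR vs. FA at 60 hpf it went from 0 to 7 with DESeq2 (crestin, pcbd1, qdpr, scarb1, slc7a11, tfap2c and tspan36) and was 0 to 2 with 1 library left out. For irradiated vs. unirradiated at 60 hpf it went from 0 to 1 with DESeq2 and with filterByExpr and to 2 without shallow libraries, and was 0 to 2 with 1 library left out (2 without the FA library of 767872 counts). For FA + XR vs. FA at 84 hpf it went from 0 to 1 with DESeq2 and with no filter, and was 0 to 2 with 1 left out (2 without the FA + XR library of 3785661 counts). For XR vs. Cont at 84 hpf it went from 1 to 3 with no filter, 0 at 5%, 2 with only the 12 libraries and 3 without shallow libraries, and was 0 to 3 with 1 left out. It was 3 without the XR library of 700645 counts. Over time, members called from 60 to 84 hpf in Cont went from 2 to 4 without shallow libraries, and from 37 to 60 hpf in XR from 1 to 2 with RLE factors. The cause was not tested, except that a stricter threshold makes fewer calls. The share of all genes called with DESeq2 was not taken, so its counts, the 7 included, are no result about the lists.

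No paired analysis was possible because no column of counts names its replicate. Depth limits tyr, ltk and the mitf ID ENSDARG00000037833 in every setting.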
